A study of Mus musculus with 33 samples.

Results

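Genes of the glucocorticoid response were followed through hematopoietic stem and progenitor cells of old mice given nicotinamide riboside (NR), a vitamin B3 form that cells turn into NAD+. They are 10 of the 55376 gene symbols in the count files, namely the receptor gene Nr3c1 and 9 genes that glucocorticoids induce in many tissues (Tsc22d3, Per1, Fkbp5, Ddit4, Sgk1, Klf9, Dusp1, Zbtb16 and Errfi1), and they were taken by symbol. They were put together after lower Tsc22d3 and Per1 had been seen with NR, so the members' differences between NR and no NR are given below as descriptions, without their p-values. The study sequenced total RNA of 33 sorted cell libraries from C57BL/6 males. O-WT mice were old (24 to 29 months) and untreated, O-NR mice were old and drank NR for 4 to 6 weeks, and O-NR-RC mice had drunk NR and then gone without it for 2 months. Cohort 2 held 4 O-WT and 4 O-NR libraries in each of hematopoietic stem cells (HSC), common lymphoid progenitors (CLP) and granulocyte-monocyte progenitors (GMP). Cohort 1 had HSC alone, with 2 libraries from untreated mice, 4 from mice on NR and 3 after its withdrawal. No young mice, transgene or hormone treatment entered these groups. The GMP libraries are named so in their titles, whereas another label field calls the cells common myeloid progenitors.

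The glucocorticoid receptor is a transcription factor that waits in the cytoplasm bound to heat shock chaperones. Cortisol or corticosterone releases it to the nucleus, where it binds DNA at glucocorticoid response elements and raises the transcription of nearby genes. The hormone follows a daily rhythm and rises with stress, and several of its targets, such as Fkbp5, feed back to restrain the receptor.

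Because the members are grouped by a shared regulator, the bases upstream of their RefSeq transcription starts (GRCm38.p6) were searched for its palindrome. Windows of 250 bases were at hand for 8 of the 10 members, with 17 starts in all. In all, 32851 windows were searched, and they came from 27025 genes, not from every gene. The palindrome, AGAACA and TGTTCT with 3 bases between them, was met in 1 of the members' 17 windows and in 3 of the 32851 (0.00913%). Its shorter core, GNACA and TGTNC with 3 bases between them, was met in 1 of the 17 and in 0.387% of all windows, and the single half-site AGAACA in 4 of the 17 and in 16.1%. Those 4 windows belonged to only 2 genes, Sgk1 and Tsc22d3. Both strands were read, and the palindrome holds the core and both half-sites within it. The E-box CACGTG, bound by clock factors, was in 4 of the 17 and in 6.02% of all windows, and the cAMP response element TGACGTCA in 2 of the 17 and in 1.55%. A match describes letters in these windows and is not a binding site. The stretch of Sgk1 is shown because it holds the palindrome, those of Tsc22d3 and Per1 because those genes lead the values below, and that of Dusp1 because it holds both an E-box and a cAMP response element. For Tsc22d3 and Per1 the window with a match is shown, and their other windows held none. The Tsc22d3 start shown is the farthest upstream of its starts searched. Capitals mark matches to any of the searched motifs, and stretches end before the first annotated exon base. They lie at chr10:21993640-21993889 (Sgk1, plus strand), chrX:140600660-140600772 (Tsc22d3, minus strand), chr11:69098699-69098947 (Per1, plus strand) and chr17:26508520-26508722 (Dusp1, minus strand).
Sgk1: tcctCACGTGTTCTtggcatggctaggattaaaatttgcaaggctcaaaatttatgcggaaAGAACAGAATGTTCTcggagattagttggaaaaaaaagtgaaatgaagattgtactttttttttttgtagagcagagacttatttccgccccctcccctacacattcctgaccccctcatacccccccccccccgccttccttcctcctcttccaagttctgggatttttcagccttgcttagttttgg
Tsc22d3: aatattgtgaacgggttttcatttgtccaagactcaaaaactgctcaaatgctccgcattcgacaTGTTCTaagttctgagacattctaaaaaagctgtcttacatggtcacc
Per1: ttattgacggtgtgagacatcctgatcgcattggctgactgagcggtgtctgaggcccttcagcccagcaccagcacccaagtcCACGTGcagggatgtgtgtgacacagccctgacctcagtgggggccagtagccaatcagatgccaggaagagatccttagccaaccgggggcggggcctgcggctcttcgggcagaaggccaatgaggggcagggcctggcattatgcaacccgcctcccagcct
Dusp1: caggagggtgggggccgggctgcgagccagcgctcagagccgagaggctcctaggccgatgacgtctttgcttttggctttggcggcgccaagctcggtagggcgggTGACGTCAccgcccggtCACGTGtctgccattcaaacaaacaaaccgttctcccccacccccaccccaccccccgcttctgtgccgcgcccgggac
In Sgk1 the palindrome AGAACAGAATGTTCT starts 189 bases before the start, and a half-site overlaps the E-box that starts 246 bases before it. In Tsc22d3 a half-site (TGTTCT) starts 185 bases before the start.

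The libraries held 4792380 to 23816042 counted reads, and levels are given as CPM, a gene's reads scaled to a common library total. Ranges and overlaps are read from CPM, before the scale factors that the fits apply between libraries. The sort markers fitted the labels. Procr, a surface marker of HSC, ran from 49.4 to 104 CPM in HSC libraries and from 0.284 to 4.8 CPM elsewhere. Summed CPM of 6 CLP markers (such as Il7r and Dntt) ran from 2540 to 4150 in CLP and up to 127 elsewhere, and that of 6 GMP markers (such as Mpo and Elane) from 17300 to 20000 in GMP and up to 578 elsewhere. Olfactory and vomeronasal receptor genes, known for their use in sensory neurons, took 858 to 8303 CPM in cohort 2. In cohort 1 they took 4445 to 9082 CPM in 5 libraries and 14277 to 15260 CPM in the other 4, which are O-NR replicates 1 and 2 and O-NR-RC replicates 2 and 3. These 4 libraries stand apart, and the cohort 1 fold changes of Tsc22d3, Per1, Fkbp5, Klf9 and Ddit4 are given with and without them. Labels give no mouse per library, so p-values measure the spread between libraries.

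The members differed first of all by cell type. Among O-WT libraries Tsc22d3 (the leucine zipper protein GILZ, an anti-inflammatory mediator), Per1 (a repressor of the circadian clock) and Klf9 (a zinc finger transcription factor) were highest in HSC by mean. Fkbp5 (a co-chaperone that lowers hormone binding by the receptor) and Zbtb16 (the transcription factor PLZF) had their highest mean in GMP, and the Fkbp5 ranges of CLP and GMP overlapped. Per kilobase of annotated exon, which allows genes to be compared, the highest members in O-WT HSC were Tsc22d3 at 22.4 ± 8.03 CPM per kb (SD, n = 4) and Per1 at 21.6 ± 5.5, whose ranges overlapped. Nr3c1 followed at 12.2 ± 0.857 and Klf9 at 10.1 ± 0.969, and these neighbours did not overlap. In O-WT CLP Nr3c1 led at 17.1 ± 2.79 CPM per kb, ahead of Tsc22d3 at 10.6 ± 3.93, a pair whose ranges overlapped. In O-WT GMP Zbtb16 (11.2 ± 2.01), Fkbp5 (9.51 ± 0.908) and Nr3c1 (9.25 ± 0.454) lay within one another's ranges. Errfi1, a feedback inhibitor of the EGF receptor, was the lowest member in HSC at 1.15 ± 0.295 CPM per kb and in GMP at 0.398 ± 0.181.

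**Figure D1:**
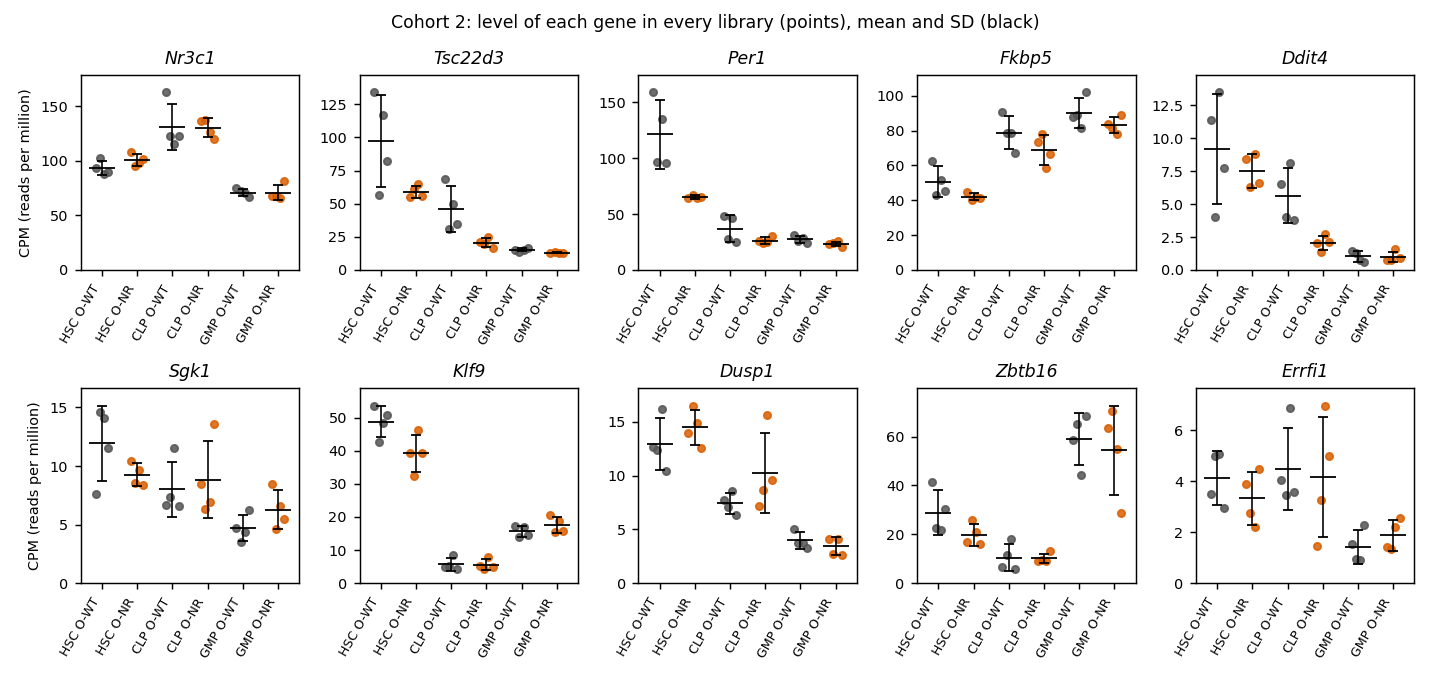
Level of each member in CPM (vertical axes, linear from 0) in every cohort 2 library (points, grey O-WT and orange O-NR), with the mean and SD in black, n = 4 per group. By mean, Tsc22d3, Per1 and Klf9 are highest in HSC and Fkbp5 and Zbtb16 in GMP, with Fkbp5 overlapping between CLP and GMP. The O-WT points of Tsc22d3 and Per1 in HSC spread from 56.4 to 134 and from 95.3 to 159 CPM.

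Nr3c1, the receptor itself, read 93.5, 103, 88.3 and 89.9 CPM in the O-WT HSC libraries, 163, 123, 116 and 123 in CLP and 74.9, 72.5, 70.2 and 66.7 in GMP. The 3 cell types did not overlap in CPM, with CLP highest and GMP lowest. In O-NR libraries the ranges were 95.4 to 108 CPM in HSC, 120 to 138 in CLP and 66.3 to 81.3 in GMP, in the same order. The fitted differences were small and turned on the scaling. CLP exceeded HSC by a log2 fold change of 0.33 ± 0.18 (SE) in O-WT (edgeR, adjusted p = 0.187) and by 0.39 ± 0.14 in O-NR (adjusted p = 0.0259). The call in O-NR did not hold in 13 alternative fits. GMP against HSC gave -0.1 ± 0.18 in O-WT (adjusted p = 0.643), and -0.49 (adjusted p = 0.000555) where the scale factors came from abundant genes only. Without a CPM filter it was 0.2, so its direction turned. CLP against GMP gave 0.43 ± 0.18 in O-WT (edgeR, adjusted p = 0.042), a call that did not hold in 16 alternative fits. In O-NR it gave 0.61 ± 0.14 (edgeR, adjusted p = 0.000894), a call that did not hold in 2 alternative fits.

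Among the targets, Tsc22d3 was lower in both progenitors than in HSC. O-WT libraries read 134, 56.4, 117 and 82 CPM in HSC, 68.5, 31, 49.5 and 34.6 in CLP and 15.1, 13.6, 15.4 and 16.5 in GMP. The CLP and HSC ranges overlapped, through replicate 1 in CLP and replicate 2 in HSC, and the GMP libraries lay below all others. The log2 fold change was -1.28 ± 0.24 in CLP (adjusted p = 6.32e-05) and -2.43 ± 0.25 in GMP (adjusted p = 8.74e-10). In O-NR libraries it was -1.51 ± 0.16 in CLP (adjusted p = 3.29e-09) and -1.89 ± 0.16 in GMP (adjusted p = 2.98e-11), and there the 3 cell types did not overlap.

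Per1 had its high level in HSC alone. O-WT libraries read 159, 96.9, 135 and 95.3 CPM in HSC, 48.3, 27.9, 46.1 and 25.4 in CLP and 31.1, 25.7, 28.5 and 24 in GMP. All HSC libraries lay above all progenitor libraries, and CLP and GMP overlapped. The log2 fold change against HSC was -1.93 ± 0.22 in CLP (adjusted p = 1.02e-08) and -1.87 ± 0.22 in GMP (adjusted p = 9.99e-09) in O-WT, and -1.29 ± 0.14 and -1.19 ± 0.14 in O-NR (adjusted p = 1.22e-08 and 2.9e-08). CLP against GMP gave -0.06 ± 0.21 in O-WT (adjusted p = 0.823), a value whose direction turned under another scaling.

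Klf9 showed the widest gap between HSC and CLP. It read 42.6 to 53.6 CPM in O-WT HSC, 4.4 to 8.56 in CLP and 14.1 to 17.2 in GMP, with no overlap between any 2 cell types. CLP lay below HSC by a log2 fold change of -3.33 ± 0.2 (adjusted p = 1.32e-14) and GMP by -1.35 ± 0.18 (adjusted p = 1.26e-07). In O-NR these values were -2.84 ± 0.21 (adjusted p = 5.14e-12) and -0.88 ± 0.19 (adjusted p = 0.000277).

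Fkbp5 and Zbtb16 ran the other way in GMP. Fkbp5 read 43.2 to 62.8 CPM in O-WT HSC, 67.2 to 90.7 in CLP and 81.6 to 102 in GMP, so that HSC lay below both progenitors. GMP exceeded HSC by a log2 fold change of 1.09 ± 0.18 in O-WT (adjusted p = 4.98e-06) and 1.27 ± 0.15 in O-NR (adjusted p = 2.35e-08). For CLP the values were 0.45 ± 0.18 (adjusted p = 0.0552) and 0.74 ± 0.15 (adjusted p = 0.000168). The Fkbp5 ranges of CLP and GMP overlapped. CLP against GMP gave -0.65 ± 0.18 in O-WT (edgeR, adjusted p = 0.00297), and -0.07 where the scale factors came from abundant genes only. Zbtb16 read 21.6 to 41.3 CPM in O-WT HSC, 5.8 to 18.2 in CLP and 44.3 to 68.3 in GMP, with no overlap between any 2 cell types. GMP exceeded HSC by 1.28 ± 0.23 (adjusted p = 1.71e-05) and CLP lay below it by -1.77 ± 0.25 (adjusted p = 5.88e-07). The gap between CLP and GMP, -3.06 ± 0.25 (adjusted p = 1.92e-11), was the widest of the 10 members in that comparison. In O-NR Zbtb16 gave 1.76 ± 0.21 in GMP (adjusted p = 3.79e-08) and -0.93 ± 0.22 in CLP (adjusted p = 0.0013).

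Ddit4, Dusp1, Sgk1 and Errfi1 were the lower members in O-WT HSC. Ddit4, which restrains the growth kinase mTORC1, read 4.03 to 13.5 CPM in O-WT HSC, 3.81 to 8.14 in CLP and 0.595 to 1.48 in GMP, and GMP lay below HSC by a log2 fold change of -2.82 ± 0.41 (adjusted p = 9.78e-07). Dusp1, a phosphatase that switches off MAP kinases, read 10.4 to 16.2 CPM in HSC, 6.3 to 8.56 in CLP and 3.32 to 5.07 in GMP without overlap in CPM, and fell by 1.4 ± 0.27 from HSC to GMP (adjusted p = 5.2e-05). Between CLP and GMP its fitted difference was 0.41 ± 0.27 (edgeR, adjusted p = 0.177). That value ran from 0.04 without the CPM filter to 1.01 with scale factors from abundant genes. Its annotated span overlaps that of Ergic1 on the other strand, and the strand setting of the counting is not given in the sources used here. The kinase gene Sgk1 read 7.6 to 14.6 CPM in HSC, 6.55 to 11.5 in CLP and 3.51 to 6.21 in GMP, and GMP lay below HSC by -1.07 ± 0.26 in O-WT (adjusted p = 0.000965) and by -0.27 ± 0.27 in O-NR (adjusted p = 0.453). Errfi1 ranged from 2.97 to 5.06 CPM in HSC, from 3.45 to 6.89 in CLP and from 0.928 to 2.3 in GMP, where its difference from HSC was -1.28 ± 0.4 in O-WT (adjusted p = 0.00854), a call lost without GMP replicate 2 or 3 (-1.03 and -1) or the CPM filter (-0.98), and -0.53 ± 0.42 in O-NR (adjusted p = 0.343). An antisense transcript overlaps Errfi1, and other genes overlap Fkbp5, so their reads cannot be told apart without the strand.

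**Figure D2:**
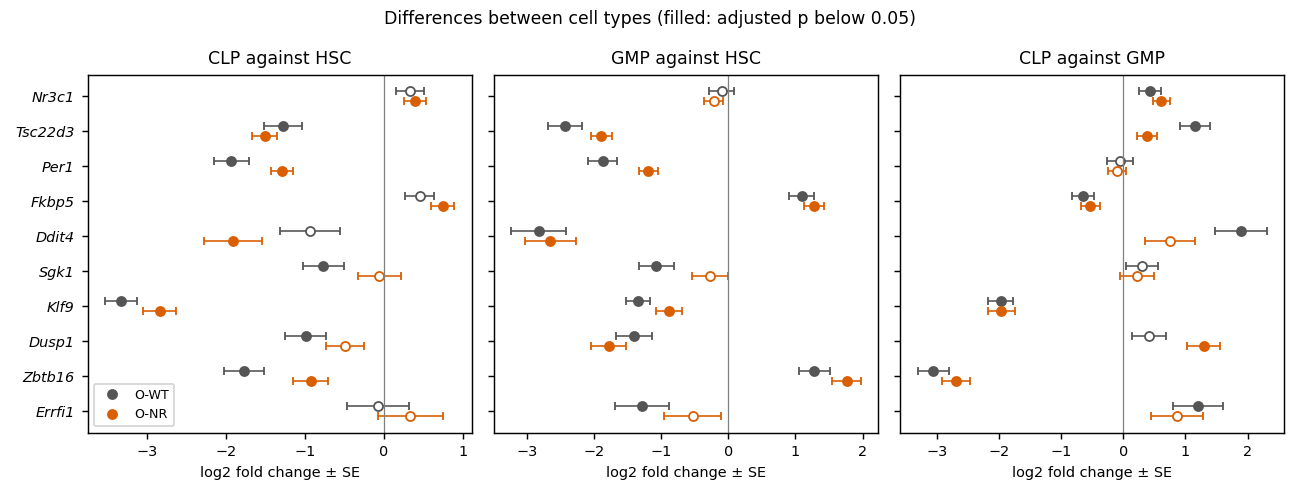
Log2 fold change ± SE (horizontal axes) of each member between cell types in O-WT (grey) and O-NR (orange) libraries of cohort 2, filled where the edgeR adjusted p was below 0.05. Klf9 in CLP is farthest below HSC at -3.33 in O-WT, and Fkbp5 and Zbtb16 are above HSC in GMP.

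In counts, 6 of the 10 members were lower and none higher in CLP than in HSC in O-WT, at an adjusted p below 0.05 that 30.3% of all 20044 genes passed (9.57% higher and 20.7% lower). GMP against HSC gave 2 higher and 7 lower, where 46.8% of all genes passed (21% higher and 25.7% lower). CLP against GMP gave 4 higher and 3 lower, where 62.1% passed (34.9% higher and 27.2% lower). In O-NR, CLP against HSC gave 2 higher and 5 lower, where 40.8% of all genes passed (19.8% higher and 20.9% lower). GMP against HSC gave 2 higher and 5 lower, where 45.8% passed (25% higher and 20.8% lower), and CLP against GMP 3 higher and 3 lower, where 49.3% passed (23.8% higher and 25.5% lower). Of these 3 higher calls, that of Tsc22d3 (0.38 ± 0.16, edgeR adjusted p = 0.0473) did not hold in 15 alternative fits. The median log2 fold change of all genes was not at 0 in several of these fits, at -0.396 for GMP against HSC and 0.317 for CLP against GMP in O-WT, and at -0.077 and 0.142 in O-NR. For CLP against HSC it was 0.044 in O-WT and 0.114 in O-NR. Set against those medians, Nr3c1 in GMP was above the typical gene in O-WT and below it in O-NR, while Tsc22d3, Per1, Klf9, Ddit4 and Dusp1 remained below it in both. The lower Tsc22d3, Per1, Klf9 and Zbtb16 in CLP, and the lower Tsc22d3, Per1, Klf9, Ddit4 and Dusp1 with higher Fkbp5 and Zbtb16 in GMP, passed the same threshold in both treatments and in every alternative fit. Tsc22d3 and Per1 were chosen on differences between O-WT and O-NR libraries, so their p-values between cell types are not free of that choice.

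With NR, Tsc22d3 and Per1 were the members with the lowest O-NR values against O-WT in HSC. Tsc22d3 read 134, 56.4, 117 and 82 CPM in O-WT HSC and 54.9, 61.3, 64.5 and 55.5 in O-NR. O-WT replicates 1, 3 and 4 lay above all O-NR libraries, and O-WT replicate 2 lay among them. The means were 97.4 ± 34.8 and 59.1 ± 4.65 CPM (SD, n = 4 each), a log2 fold change of -0.71 ± 0.21. Per1 read 159, 96.9, 135 and 95.3 CPM in O-WT and 64.4, 67.5, 64.1 and 65.5 in O-NR, without overlap, and its log2 fold change was -0.87 ± 0.16. For both genes the O-NR libraries lay close together and the O-WT libraries were spread out, with replicates 1 and 3 highest. Without O-WT replicate 1 the values were -0.44 for Tsc22d3 and -0.64 for Per1.

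The other members in HSC moved less. Zbtb16 read 41.3, 22.5, 21.6 and 30.3 CPM in O-WT and 16.9, 25.7, 20.8 and 15.9 in O-NR, a log2 fold change of -0.54 ± 0.21 between overlapping groups. Klf9 (42.6 to 53.6 CPM against 32.4 to 46.1), Fkbp5 (43.2 to 62.8 against 40 to 44.9) and Sgk1 (7.6 to 14.6 against 8.37 to 10.4) gave -0.28 ± 0.14, -0.25 ± 0.13 and -0.32 ± 0.21. Ddit4 (-0.25 ± 0.32) and Errfi1 (-0.26 ± 0.37) had standard errors larger than their differences. Nr3c1, at 0.14 ± 0.1, and Dusp1, at 0.2 ± 0.17, were above 0. In all, 8 of the 10 values were below 0, with a median of -0.27 where that of all genes was -0.024. The sum of 6 B and plasma cell markers ran from 51.1 to 721 CPM in O-WT HSC and from 8.27 to 110 CPM in O-NR HSC, with overlap, and of the 3 of these genes tested 1 was called lower. The highest of these sums was in O-WT replicate 4, whereas Tsc22d3 and Per1 were highest in replicate 1, at 146 CPM of these markers, and the part of such cells in the differences was not tested. In bulk RNA, fewer cells of one kind and less RNA per cell cannot be told apart.

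In CLP the same contrast brought forward Tsc22d3 and Ddit4. Tsc22d3 read 68.5, 31, 49.5 and 34.6 CPM in O-WT and 21, 19.3, 25.2 and 16.9 in O-NR, without overlap, a log2 fold change of -1.04 ± 0.22. Ddit4 read 6.55, 4.02, 8.14 and 3.81 CPM in O-WT and 2.04, 1.37, 2.7 and 2.09 in O-NR, likewise without overlap, at -1.31 ± 0.48. Per1 gave -0.34 ± 0.2, its O-WT libraries falling in a higher pair (48.3 and 46.1 CPM, replicates 1 and 3) and a lower pair (27.9 and 25.4) that lay among the O-NR libraries (24.2 to 30.6). Replicates 1 and 3 were also the higher O-WT libraries for Tsc22d3 and Ddit4 in CLP. The other members differed by -0.06 (Fkbp5) to 0.59 ± 0.32 (Dusp1), and Dusp1 ran from 7.14 to 15.6 CPM in O-NR through its replicate 3. CLP O-WT replicate 3 had the highest receptor gene sum of the cohort, 8303 CPM, beside 2115 to 4960 CPM in O-NR CLP, and the part of this background was not tested. The sum of 6 neutrophil markers read 135, 50.4, 143 and 164 CPM in O-WT CLP and 139, 95.2, 11.5 and 21.6 in O-NR, with overlap, and the 5 of these genes tested were all below 0 (median log2 fold change -0.67) without a call. The part of such cells was not tested either.

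In GMP the values lay close together. Tsc22d3 read 15.1, 13.6, 15.4 and 16.5 CPM in O-WT and 12.9, 13.3, 12.7 and 13 in O-NR, which did not overlap but differed by only -0.24 ± 0.11 on the log2 scale. Per1 read 24 to 31.1 CPM and 20.9 to 25.5, a difference of -0.26 ± 0.11, and Fkbp5 gave -0.14 ± 0.07. Sgk1 was at 3.51 to 6.21 CPM in O-WT and 4.63 to 8.44 in O-NR, or 0.41 ± 0.24. Ddit4 and Errfi1 did not pass the filter of more than 3 CPM in GMP, which left 8 members.

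**Figure D3:**
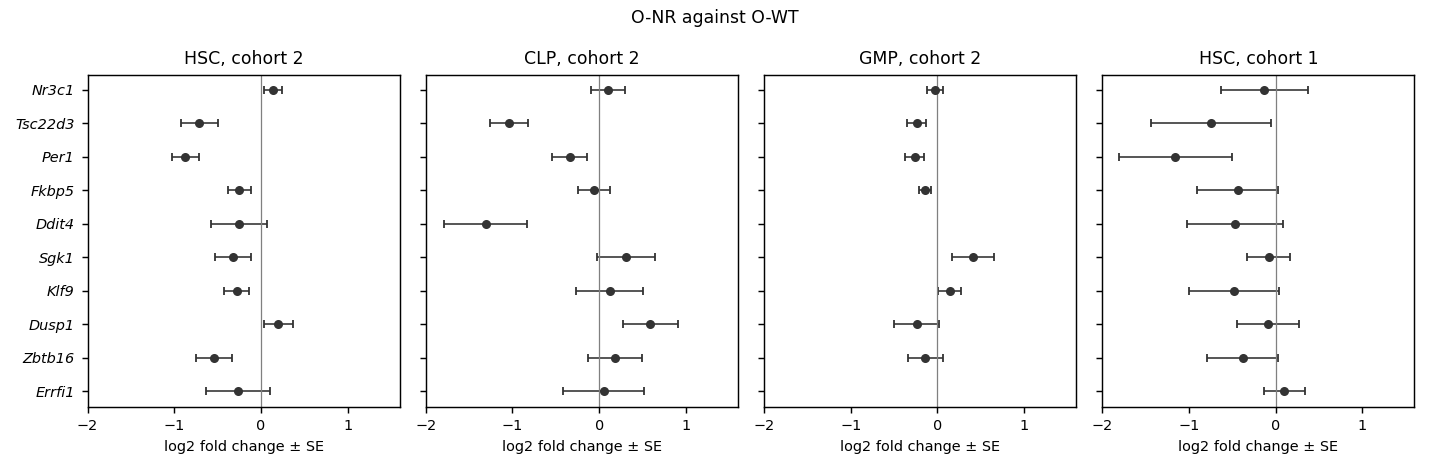
Log2 fold change ± SE (horizontal axes) of O-NR against O-WT for each member in HSC, CLP and GMP of cohort 2 (n = 4 each) and in HSC of cohort 1 (n = 4 and 2). Tsc22d3 is below 0 in all 4 panels, from -1.04 in CLP to -0.24 in GMP, and the bars of cohort 1 are wider than those of cohort 2. Ddit4 and Errfi1 have no point in GMP.

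At the threshold of an unadjusted p below 0.01, which 0.726% of all genes passed in HSC (0.351% lower), the NR contrast held 2 members (Tsc22d3 and Per1, both lower). In CLP it held 2 (Tsc22d3 and Ddit4, both lower), where 0.412% of all genes passed (0.256% lower). In HSC the count was 1 without O-WT replicate 1, O-NR replicate 1 or O-NR replicate 4, and in CLP it was 1 without any single library but O-NR replicate 3. The contrast held none of 8 in GMP (1 without O-WT replicate 4), where 0.986% passed (0.749% lower), and none in HSC of cohort 1, where 0.048% passed (0.027% lower). Groups did not overlap, with O-NR lower, for 1 member in HSC (1.58% of all genes), 2 in CLP (2.29%), 1 in GMP (1.39%) and 1 in cohort 1 (3.03%). The members were chosen on this contrast, and nothing is read from these counts. The smallest adjusted p over all genes was 0.0646 in HSC and 0.764 in CLP (edgeR).

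Within HSC most of the induced genes moved with Tsc22d3 from library to library. With each treatment centred on its mean, Pearson's r with Tsc22d3 over the 8 cohort 2 HSC libraries was 0.95 for Per1, 0.94 for Ddit4, 0.9 for Fkbp5, 0.84 for Dusp1, 0.77 for Klf9 and 0.72 for Zbtb16, while Sgk1 (-0.15) and Errfi1 (-0.01) did not follow. Nr3c1 stood at 0.54. The members did not keep this order in the progenitors. In CLP the measure was 0.73 for Per1, 0.66 for Ddit4, 0.65 for Nr3c1, 0.46 for Fkbp5 and 0.44 for Dusp1, but 0.22 for Klf9, 0.12 for Errfi1, -0.33 for Sgk1 and -0.6 for Zbtb16. In GMP it was 0.76 for Nr3c1, 0.7 for Fkbp5, 0.59 for Per1 and 0.52 for Klf9, but 0.25 for Zbtb16, 0.2 for Dusp1, 0.01 for Ddit4, -0.15 for Sgk1 and -0.71 for Errfi1. These values describe libraries that share depth, scaling and background, and the O-WT libraries carry most of the spread. How many of all genes reach such values was not counted.

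Over all 24 cohort 2 libraries, centred within cell type, the gene most like Tsc22d3 among 13195 was Per1 (r = 0.8), followed by Sla and Eno3 (0.76 each), Gm49839 (0.74) and Snx29 (0.73). For Per1 the most alike were Tsc22d3 (0.8), Tbc1d2 (0.76), Hivep2 (0.73), Pttg1 (0.72) and Gm49839 (0.71). Of the other members compared, Fkbp5 gave 0.63 with Tsc22d3, Klf9 0.38, Nr3c1 0.2, Zbtb16 0.16, Dusp1 -0.03 and Sgk1 -0.26. Treatment was left in all these values, so shared differences with NR count toward them. Ranked by Spearman's rho instead, 1 of the 5 for Tsc22d3 and 2 of the 5 for Per1 remained.

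Libraries of HSC, CLP and GMP share replicate numbers, and no label says whether a number marks a mouse. Across the 8 same-numbered pairs, centred within treatment, Tsc22d3 in HSC and CLP gave Pearson's r = 0.87 (two-sided exact permutation p = 0.059, adjusted over 30 relations 0.599) and Spearman's rho = 0.69 (exact permutation p = 0.099, adjusted 0.594), and r fell to 0.35 without the 2 libraries farthest from the median in HSC. Per1 gave r = 0.84 (exact permutation p = 0.0729, adjusted 0.599) and rho = 0.64 (exact permutation p = 0.234, adjusted 0.938), and 0.11 without the 2 farthest. Both relations rest on those libraries. Ddit4 had r = 0.89 between HSC and CLP (exact permutation p = 0.00347, adjusted 0.104). None of the 30 relations passed the correction, and between HSC and GMP Tsc22d3 gave -0.4.

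**Figure D4:**
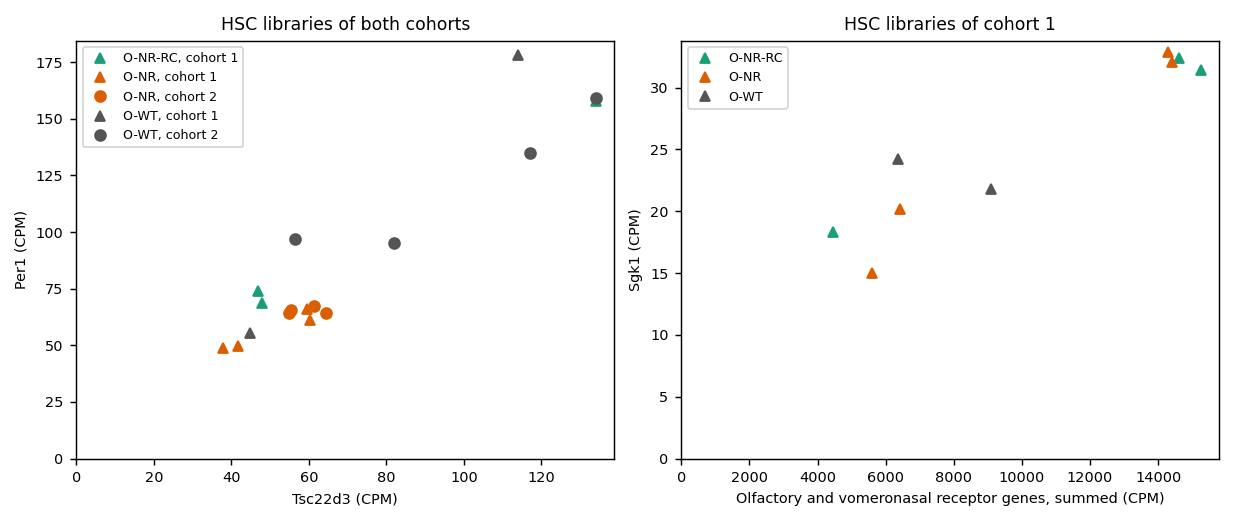
Left, Per1 against Tsc22d3 in CPM for the 17 HSC libraries of both cohorts (circles cohort 2, triangles cohort 1, coloured by group). Right, Sgk1 CPM against the summed CPM of olfactory and vomeronasal receptor genes in the 9 cohort 1 libraries. The 4 libraries highest in Tsc22d3 (114 to 134 CPM) are also the 4 highest in Per1 (135 to 178 CPM), and the 4 libraries with more than 10000 receptor CPM hold the 4 highest Sgk1 values (31.4 to 32.9 CPM). CPM are shown before the scale factors, which remove the split in Sgk1.

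Cohort 1 asked the same of NR in a smaller set and added its withdrawal. Tsc22d3 read 114 and 44.7 CPM in O-WT, 41.7, 37.8, 59.4 and 60.3 in O-NR and 134, 48 and 47 in O-NR-RC. Per1 read 178 and 55.5 CPM in O-WT, 49.6, 48.7, 66.1 and 61.3 in O-NR and 158, 68.8 and 74 in O-NR-RC. For both genes replicate 1 of O-WT and replicate 1 of O-NR-RC were high and the other libraries of these groups lay near the O-NR libraries. In CPM, all O-NR-RC libraries exceeded all O-NR libraries in Per1, as in 0.663% of all genes, and not in Tsc22d3. The scale factors were 1.321 and 1.317 in O-NR-RC replicates 2 and 3, and 0.858 and 0.778 in O-NR replicates 3 and 4. Divided by these, Per1 in the former 2 libraries lay below the latter 2, so the separation did not outlast scaling.

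O-NR against O-WT gave a log2 fold change of -0.75 ± 0.69 for Tsc22d3 and -1.16 ± 0.65 for Per1 in cohort 1, the O-NR libraries also serving the withdrawal comparison. Without O-WT replicate 1 the values were 0.2 and 0.04, so the direction rested on that library. Without the 4 libraries high in receptor genes they were -0.3 and -0.77. Fkbp5 (57.9 and 77 CPM in O-WT, 47.7 to 57.1 in O-NR) did not overlap in CPM before the scale factors, at -0.44 ± 0.47, and came to -0.24 without the 4 libraries. Klf9 (-0.48 ± 0.52) and Ddit4 (-0.47 ± 0.55) came to -0.12 and -0.13 without them. In that fit 1 member (Per1) was called, where 2.03% of all genes passed. Klf9, at 59.5 and 34.7 CPM in O-WT, and Zbtb16, at 36.1 and 24.9, again had their higher value in replicate 1.

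O-NR-RC against O-NR gave 0.78 ± 0.62 for Tsc22d3 and 0.96 ± 0.59 for Per1. Without O-NR-RC replicate 1 these became -0.55 and -0.12, so that both directions turned. Fkbp5 (94, 63.7 and 55.7 CPM in O-NR-RC) gave 0.49 ± 0.42, Klf9 (64.5, 36 and 35.6 CPM) 0.43 ± 0.47 and Ddit4 (14.9, 5.97 and 5.96 CPM) 0.42 ± 0.49, each with an edgeR adjusted p of 1. Without O-NR-RC replicate 1 these also turned, to -0.27, -0.46 and -0.8. O-NR-RC against O-WT gave 0.03 ± 0.74 for Tsc22d3 and -0.2 ± 0.7 for Per1, given without p since O-WT libraries entered the choice of both genes. These values near 0 rested on 1 high library in each group. Without O-WT replicate 1 they were 0.98 and 1.01, and without O-NR-RC replicate 1 they were -1.3 and -1.28. No member and none of 33350 genes (0%) passed an adjusted p below 0.05 in either withdrawal comparison with edgeR. At an unadjusted p below 0.05, 97 genes (0.291%) passed against O-NR and 265 (0.795%) against O-WT, and DESeq2 called 2 genes against O-NR at its adjusted p. With the 4 libraries high in receptor genes left out, O-NR-RC was replicate 1 alone, which was then assumed to vary like the other groups, and 6 members were called against O-NR, where 0.584% of all genes passed. The values against O-NR were then 1.36 for Tsc22d3, 1.51 for Per1, 1.05 for Fkbp5, 0.9 for Klf9 and 1.04 for Ddit4. Against O-WT they were 1.06, 0.74, 0.81, 0.77 and 0.91 in that order. All of these rest on 1 O-NR-RC library, the one without which the directions turned.

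In CPM, Sgk1 and Errfi1 went with the receptor background in cohort 1 rather than the groups, a split that the scale factors remove. Sgk1 read 32.1 and 32.9 CPM in O-NR replicates 1 and 2 and 31.4 and 32.4 in O-NR-RC replicates 2 and 3, the 4 libraries high in receptor genes, and 15 to 24.2 CPM in the other 5. Errfi1 read 8.59 to 11.9 CPM in the former and 3.69 to 7.21 in the latter. The scale factors were 1.232 to 1.321 in those 4 libraries and 0.671 to 0.969 in the other 5. Divided by these factors, the values of both genes overlapped between the 2 sets of libraries. Tsc22d3, at 37.8 to 48 CPM in those 4 libraries, had values of 44.7 to 134 in the others. The part of this background in the differences was not tested.

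**Figure D5:**
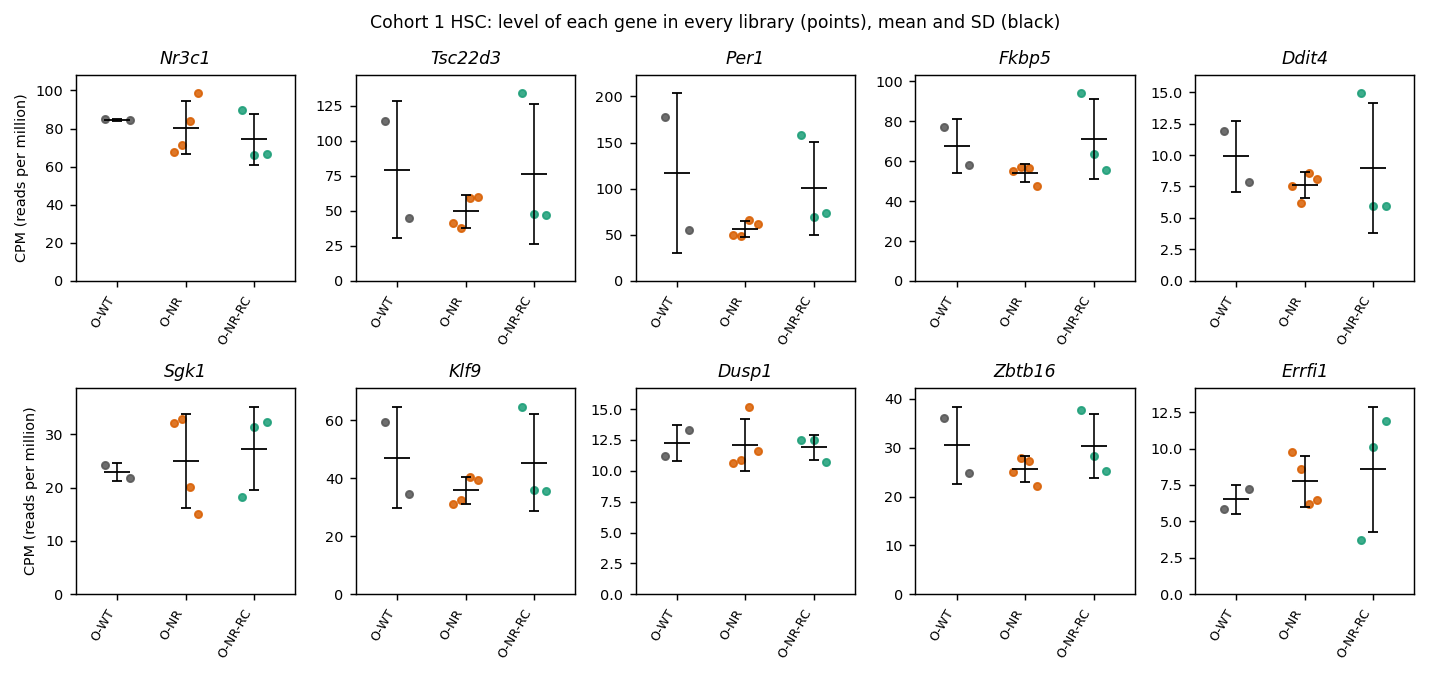
Level of each member in CPM (vertical axes, linear from 0) in every HSC library of cohort 1 (points), with the mean and SD in black, for O-WT (grey, n = 2), O-NR (orange, n = 4) and O-NR-RC (green, n = 3). One O-WT library and one O-NR-RC library stand above the rest in Tsc22d3, at 114 and 134 CPM, and in Per1, Klf9 and Ddit4.

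Other genes of the pathway were read from lists chosen with earlier results known. Of 40 further glucocorticoid-induced genes, 37 were tested in HSC, and 1 was higher and 2 lower with NR at an unadjusted p below 0.01 (0.374% of all genes were called higher and 0.351% lower), with a median log2 fold change of -0.06. The lower ones were Cxcr4, the chemokine receptor that holds stem cells in the marrow, and Birc3, an inhibitor of apoptosis, at -0.3 ± 0.1 (adjusted p = 0.995), which is named outside the naming rule after its values were seen. Cxcr4 read 28.8, 26.4, 33.4 and 27.6 CPM in O-WT HSC and 12.5, 20, 19.6 and 16.2 in O-NR without overlap, at -0.74 ± 0.15 (edgeR, adjusted p = 0.38). In GMP Cxcr4 was the 1 gene of 32 called, at -0.28 ± 0.08 (adjusted p = 0.905), and in CLP, where none of 37 was called, it gave -0.16 ± 0.21 (adjusted p = 1). In HSC of cohort 1 it gave -0.2 ± 0.46 (adjusted p = 1), and 0.2 without the 4 libraries high in receptor genes. Arrdc3, the higher one in HSC, gave 0.56 ± 0.16 (adjusted p = 0.995).

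Of 18 receptor chaperones and coregulators, 1 was called lower with NR in HSC (0.351% of all genes) and 1 in GMP (0.749%), in both cases Hspa8, the constitutive HSC70 chaperone. Hspa8 read 1110 to 1610 CPM in O-WT HSC and 827 to 974 in O-NR, at -0.47 ± 0.15 (adjusted p = 0.995), and gave -0.51 ± 0.11 in GMP (adjusted p = 0.674) and -0.55 ± 0.29 in CLP (adjusted p = 1), with groups that did not overlap in any of the 3 cell types. In cohort 1 the value was -0.03 ± 0.74, and 0.4 without the 4 libraries high in receptor genes. None of the steroid metabolism genes (4 tested), immediate early genes (8 in HSC and CLP, 6 in GMP) or clock genes (11 in HSC and CLP, 10 in GMP) was called with NR in cohort 2. The immediate early genes nevertheless lay mostly below 0, 7 of 8 in HSC (median log2 fold change -0.22), 6 of 8 in CLP (-0.26) and 6 of 6 in GMP (-0.22), where the medians of all genes were -0.024, -0.005 and -0.002. Of the clock genes, 8 of 11 were below 0 in HSC (median -0.06), 4 of 11 in CLP (0.1) and 3 of 10 in GMP (0.06). The immediate early list also held the heat shock genes Hspa1a and Hspa1b. In HSC of cohort 1, 4 of the 10 genes of that list (median 0) and 9 of 11 clock genes (median -0.12) were below 0. The median of all genes there was -0.007.

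Between cell types the same lists differed widely. In O-WT, GMP exceeded HSC in 11 and fell below it in 5 of the 18 chaperones and coregulators (46.8% of all genes passed), with Fkbp4, the co-chaperone that aids receptor transport, at 1.5 ± 0.21 (adjusted p = 3.89e-07) and Nr3c2, the mineralocorticoid receptor, at -2.56 ± 0.26 (adjusted p = 5.08e-10). Of the 40 other induced genes, 10 were higher and 18 lower in GMP than in HSC, where Txnip, an inhibitor of thioredoxin, gave -3.82 ± 0.27 (adjusted p = 2.14e-13) and Cdkn1c, a cell cycle inhibitor, -5.21 ± 0.38 (adjusted p = 5.42e-13). In CLP 11 were higher and 13 lower than in HSC (30.3% of all genes passed), with the interleukin receptor Il7r, a marker of the sort, at 5.82 ± 0.31 (adjusted p = 7.58e-16) and Txnip at -3.23 ± 0.26 (adjusted p = 8.82e-12). The pump gene Abcb1a, which exports steroids, was below HSC in both, at -1.75 ± 0.27 in CLP (adjusted p = 4.11e-06) and -2.98 ± 0.29 in GMP (adjusted p = 2.4e-10). Of the clock genes, 5 of 11 were lower and none higher in CLP and 7 lower and 1 higher in GMP, with Bhlhe40, a repressor of the clock, at -2.96 and -3.01. Of 9 tested genes of the immediate early list, 3 were lower and 1 higher in CLP and 4 lower and none higher in GMP. Egr1, a factor of quiescent stem cells, gave -3.79 in GMP.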

How the data were processed

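Total RNA of sorted cells was sequenced in 33 libraries. The authors trimmed reads with cutadapt, aligned them to mm10 with STAR and used featureCounts for counts by gene. The deposited values are whole-number counts without normalization (strand setting not given in the sources used here). Groups came from the labels. The members and lists were chosen with earlier results of these data known, and the text names the members, each list's counts and up to 2 of its called genes with the smallest p.

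CPM were computed from library totals. Genes with more than 3 CPM in as many libraries as the smallest group were scaled by TMM and tested with edgeR 4.0.16 (quasi-likelihood, R 4.3.3), called at an unadjusted p below 0.01 for NR and a Benjamini-Hochberg adjusted p below 0.05 otherwise. Each cell type was fitted alone for NR, cohort 1 as one set of 9 libraries and cell types within each treatment. Correlations used log2 CPM with a prior count of 2. Scripts were tested on simulated data. Alternatives were DESeq2 1.42.0, other scaling, filters and fold limits, left-out replicates and the replicate number as a block, and, chosen after seeing the data, scaling on genes above 30 CPM, a receptor gene covariate and leaving out 4 libraries. Exon lengths and positions are from Gencode M21 (GRCm38). Depth was 4792380 to 23816042 reads. No 2 libraries of a group agreed within sampling noise. Deviations of same-numbered O-WT libraries of HSC and CLP correlated at 0.12 to 0.36 in all 4 pairs (mean 0.27, other pairs -0.09). Of the 4 HSC libraries there, 2 correlated best with the CLP library of their own number. In O-NR the same 2 cell types gave -0.37 to 0.06 (mean -0.1, other pairs 0.03). No label states a pairing, and these values do not settle whether a number marks a mouse. Other pairs of cell types reached down to -0.48.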

Additional observations from a re-analysis of the deposited data

Results flagged for a closer look

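In 70 groups of 4 libraries (10 members in 7 groups), 4 had a highest library whose gap to the next was wider than Dixon's limit, where chance alone gives about 1 group in 20. Nr3c1 was at 163 CPM in CLP O-WT replicate 1, above the next at 123, and at 81.3 CPM in GMP O-NR replicate 4, above the next at 68.3. Sgk1 stood at 11.5 CPM in CLP O-WT replicate 3, the library with the highest receptor gene sum of cohort 2, and the next was at 7.32. Zbtb16 reached 13.1 CPM in CLP O-NR replicate 4, and the next was at 9.33. No member had O-NR libraries wholly above O-WT in one cell type and wholly below in another.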

How the results depend on the processing

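Of the genes passing the threshold with NR in HSC, CLP, GMP and cohort 1 HSC (126, 82, 133 and 16), counts moved by over 1.5 times as follows, and the cause was not tested. A fold change above 1.5 left 32 genes in HSC (1 other induced gene) and 14 in GMP (0 other induced). Upper quartile scaling gave 203 in HSC (5 other induced), 1 member in CLP, and 4 in cohort 1 (1 other induced). No CPM filter gave 283, 336, 366 and 80 (0 other induced in GMP), and a filter at 1 CPM 136 in CLP, 56 in cohort 1 and 0 other induced in GMP. DESeq2 gave 64 in cohort 1 and 2 for O-NR-RC against O-NR. One fit of 24 libraries gave 335 in CLP (2 other induced) and 37 in GMP (0 other induced). The 6 O-WT and O-NR libraries of cohort 1 alone gave 25 (1 other induced).

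Among alternatives chosen after seeing the data, scaling on abundant genes gave 195 in HSC (5 other induced), 1 member and 1 other induced gene in CLP, and 9 in cohort 1. With it Per1 in CLP against GMP turned to 0.53 in O-WT and 0.29 in O-NR. The receptor gene covariate gave 383 in HSC (5 members, 5 other induced), 317 in CLP (2 other induced), 446 in cohort 1 (1 member, 2 other induced), 18 and 3 for O-NR-RC against O-NR and O-WT, and 4287 and 4048 for CLP against GMP in O-WT and O-NR (12450 and 8916 without it). Without the 4 libraries high in receptor genes, cohort 1 gave 574 with NR (1 member, 3 other induced), 165 for O-NR-RC against O-NR (6 members) and 576 against O-WT (4 members, 2 other induced), and Ddit4 and Klf9 turned to 0.91 and 0.77 against O-WT.

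With the replicate block, the NR contrast gave 253 genes in HSC (5 other induced) and 184 in CLP (1 member). Tsc22d3 in CLP against GMP, O-NR, fell short of the threshold with the block (0.37, edgeR adjusted p = 0.066). The block was among 15 alternative fits in which that call did not hold. For CLP against HSC in O-WT, the comparison whose same-numbered libraries all correlated above 0.1, the block gave 5908 genes and 6 members (6071 and 6 without it) and changed no member's call. In the other comparisons the libraries were taken to share only a number.

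Leaving out each replicate in turn gave these lowest and highest counts of all genes, members and other induced genes. With NR they were 61 to 249, 1 to 3 and 1 to 4 in HSC, 42 to 149, 1 to 2 and 0 to 1 in CLP, 62 to 305, 0 to 1 and 1 to 4 in GMP, and 4 to 47, 0 to 0 and 0 to 1 in cohort 1. Both withdrawal comparisons gave 0 to 1, 0 to 0 and 0 to 0. In O-WT they were 4945 to 6835, 5 to 9 and 22 to 24 for CLP against HSC, 7259 to 9464, 8 to 9 and 25 to 28 for GMP against HSC, and 8924 to 13533, 5 to 7 and 20 to 28 for CLP against GMP. In O-NR they were 6155 to 8394, 6 to 8 and 24 to 28, then 7487 to 8883, 7 to 8 and 26 to 28, then 6988 to 10484, 5 to 6 and 20 to 26, in the same order.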
